A study of Rattus norvegicus with 3 samples.

Results

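The Lin28, Hmga and Igf2bp genes form a small set of so-called heterochronic genes, whose levels mark or set the developmental age of stem and progenitor cells. The set was taken by gene symbol and holds 8 members, Lin28a, Lin28b, Hmga1, Hmga2, Igf2bp1, Igf2bp2, Igf2bp3 and Trim71, of the 29772 genes listed for each library. All 8 were listed. They were measured by single-cell RNA-seq in wild-type rat embryonic cerebral cortex, in 3 libraries labelled E14, E16 and E18 for the embryonic day (14, 16 and 18). Each label has 1 library, with no treatment beyond dissociation with papain. The number, sex and strain of the embryos behind each library are not given in the sources used here. The 10x Genomics 3′ chemistry counts unique molecular identifiers (UMIs), which stand for single captured mRNA molecules. The protocol text shared by the samples also describes a sort for human cells and an expansion culture, which do not match freshly prepared rat cortex.

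As background, Lin28a and Lin28b are RNA-binding proteins that block the maturation of let-7 microRNA precursors, and let-7 in turn represses Lin28b, Hmga2, the Igf2bp genes and Trim71. Hmga1 and Hmga2 are small chromatin proteins that bind the minor groove of AT-rich DNA, and Hmga2 is known as a marker of young neural stem cells. Igf2bp1, Igf2bp2 and Igf2bp3 bind mRNAs in the cytoplasm and control their stability, transport and translation. Trim71 (LIN-41) is an RNA-binding ubiquitin ligase of early embryos and an ancient let-7 target. In the developing cortex, radial glia are the stem cells along the ventricle, intermediate progenitors are their dividing, neuron-producing daughters, and newborn neurons migrate outward and mature.

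The let-7 family is the regulator these genes share, so its mature sequences are shown here. No let-7 gene was counted in these libraries, and the sequences carry no measurement. The RefSeq microRNA table, on build GRCr8, gives 8 mature let-7 5p names from 11 rat loci. The capitals mark the seed, bases 2 to 8 from the 5′ end, through which a microRNA chooses its targets.
rno-let-7a-5p: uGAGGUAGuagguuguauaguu
rno-let-7b-5p: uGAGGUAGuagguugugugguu
rno-let-7c-5p: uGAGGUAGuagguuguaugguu
rno-let-7d-5p: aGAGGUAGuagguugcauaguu
rno-let-7e-5p: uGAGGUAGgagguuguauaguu
rno-let-7f-5p: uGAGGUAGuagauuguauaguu
rno-let-7g-5p: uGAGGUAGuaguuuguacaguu
rno-let-7i-5p: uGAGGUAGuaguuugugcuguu
All 8 share the seed GAGGUAG. Lin28 proteins are known to grip the let-7 precursor at a GGAG stretch behind the loop, and 9 of the 10 let-7 hairpins in the table hold GGAG beyond the 5p arm. The hairpin of let-7g carries it, and that of let-7c-2 does not. Capitals mark GGAG.
Mirlet7g (chr8:115701020-115701107, plus strand): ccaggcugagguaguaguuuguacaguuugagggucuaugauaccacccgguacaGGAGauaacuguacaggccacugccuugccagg
Mirlet7c2 (chr7:118683623-118683717, plus strand): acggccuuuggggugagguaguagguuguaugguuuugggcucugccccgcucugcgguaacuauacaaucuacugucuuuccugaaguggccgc

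The files held 7100, 6707 and 6937 barcodes and 62740631, 80974234 and 73727823 UMIs for labels E14, E16 and E18. Barcodes with at least 1000 genes and at most 10% mitochondrial UMIs numbered 4444, 5193 and 5690, and after removal of likely doublets 4286, 4977 and 5431 cells remained, with a median of 10477 to 12264 UMIs. Between 12 and 17 barcodes were shared by any pair of libraries. The labels did not follow the order of the age-related contents. Embryonic globins, which adult globins replace as development goes on, were 2.57% of globin UMIs with label E14, 67.4% with label E16 and 22.01% with label E18. Each value below is therefore given for the library labelled so, and no direction with age is drawn from it. With 1 library per label there is no replicate check and no test. The 95% intervals (exact Poisson for levels, exact Clopper-Pearson for shares) cover counting error only.

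The libraries also differed in which cells they held. Radial glia, checked against 12 markers such as Pax6, Sox2 and Vim, numbered 374 in label E14 (8.73% of its cells), 2977 in label E16 (59.8%) and 1778 in label E18 (32.7%). Intermediate progenitors, led by Eomes and Neurog2, numbered 466, 402 and 1090. Newborn and maturing excitatory neurons together made up most of the label E14 library (1221 and 2124 cells) and were common in label E18 (1406 and 857), but only 6 and 1 such cells were found in label E16. That library also held 596 cells in a cluster led by Calb1, Calb2 and Lhx9 and 369 cells in a cluster led by Fgf17 and Fgf8. Neither cluster was given a cell type name. Over all labels the Calb1/Calb2-led cluster held 5983 CPM of the 12 maturing-neuron markers and 2677 of the 9 newborn-neuron markers, none at 0. Named maturing neurons held 7727 CPM of the former, and Cajal-Retzius cells, early neurons of the cortical surface, 6370. The list that scored highest in the cluster was that of Cajal-Retzius cells, at 325 CPM over 7 markers, against 4134 in named Cajal-Retzius cells. The cluster also held 1710 CPM of the 10 intermediate progenitor markers. The Fgf17/Fgf8-led cluster held 3736 CPM of the 12 radial glia markers, none at 0. Named radial glia held 5250 CPM of them, meningeal or fibroblast-like cells 4037 and mural cells 4494. The list that scored highest in this cluster was that of GABAergic lineage cells, at 322 CPM over 11 markers. Named GABAergic cells held 2563 CPM of that list and radial glia 105. Levels are given as CPM, the UMIs of a gene per 1000000 UMIs of the group, so that depth and the number of cells do not enter. The total includes globin UMIs, so much globin in a group, as in erythroid cells, lowers the CPM of every other gene. They were not scaled by transcript length, and levels of different genes are not compared.

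Of the Lin28 pair, Lin28a had few UMIs in every library and Lin28b was measurable mainly in the library labelled E16. Lin28a had 12, 32 and 14 UMIs in all cells of labels E14, E16 and E18. That is 0.227, 0.449 and 0.216 CPM. Label E16 was 2.08-fold above label E18 (1.08 to 4.22) and 1.98-fold above label E14 (0.991 to 4.21). The highest Lin28a levels were in GABAergic lineage cells, with 8 UMIs in 7 of 74 cells labelled E16 and 3 UMIs in 1 of 56 cells labelled E14, and in the Fgf17/Fgf8-led cluster, with 9 UMIs. The 70 GABAergic cells labelled E18 held none. In this class 71 cells of label E16 lay in 1 cluster, and 55 of label E14 and 69 of label E18 in another. Radial glia held 0, 7 and 4 Lin28a UMIs.

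Lin28b had 47, 466 and 98 UMIs in all cells, or 0.889 CPM (0.653 to 1.18) for label E14, 6.54 (5.96 to 7.16) for label E16 and 1.51 (1.23 to 1.84) for label E18. The label E16 library was thus 7.35-fold higher than label E14 (5.44 to 10.1) and 4.33-fold higher than label E18 (3.48 to 5.44). In radial glia there were 0, 309 and 25 UMIs. Against a floor of 3 UMIs for the library without any, label E16 radial glia were at least 12.4-fold higher than label E14 radial glia, and the exact 95% interval of that ratio began at 10.03-fold. Lin28b lay below the 5 CPM minimum set for counting members past 2-fold in these comparisons, so it enters no count of members between labels given below. In the step from radial glia to intermediate progenitors of label E16 it reached that minimum.

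Lin28b was not limited to radial glia. Within label E16 its level was 6.69 CPM (5.96 to 7.48) in radial glia, 6.84 (4.65 to 9.71) in intermediate progenitors and 7.57 (5.44 to 10.3) in the Calb1/Calb2-led cluster, which do not differ beyond counting error. It was highest in the Fgf17/Fgf8-led cluster, at 11.1 CPM (8.18 to 14.8), 1.67-fold above radial glia (1.198 to 2.27). In label E18 it was 0.992 CPM in radial glia, 0.803 in intermediate progenitors, 2.24 in newborn neurons and 1.93 in maturing neurons. Newborn neurons of that label exceeded intermediate progenitors by 2.79-fold (1.30 to 6.47), from 26 and 10 UMIs. In label E14, 33 of the 47 UMIs (70.2%) came from maturing neurons, the largest class there. Erythroid cells labelled E16 held no Lin28b UMI, for which the floor of 3 UMIs is 0.733 CPM.

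Trim71 had 37 UMIs in the library labelled E16, against 1 and 2 in labels E14 and E18. Few of them were in the named progenitors: 4 UMIs fell in the 2977 radial glia labelled E16 and none in the 402 intermediate progenitors. Meningeal or fibroblast-like cells, a group that also held 3094 CPM of the 9 endothelial markers beside 7734 CPM of its own, had 12 (7.07 CPM, 3.65 to 12.4) and the Fgf17/Fgf8-led cluster held 10 (2.37 CPM, 1.14 to 4.36). The latter was 27.4-fold above radial glia (7.90 to 120), a ratio that rests on 10 and 4 UMIs.

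**Figure D1:**
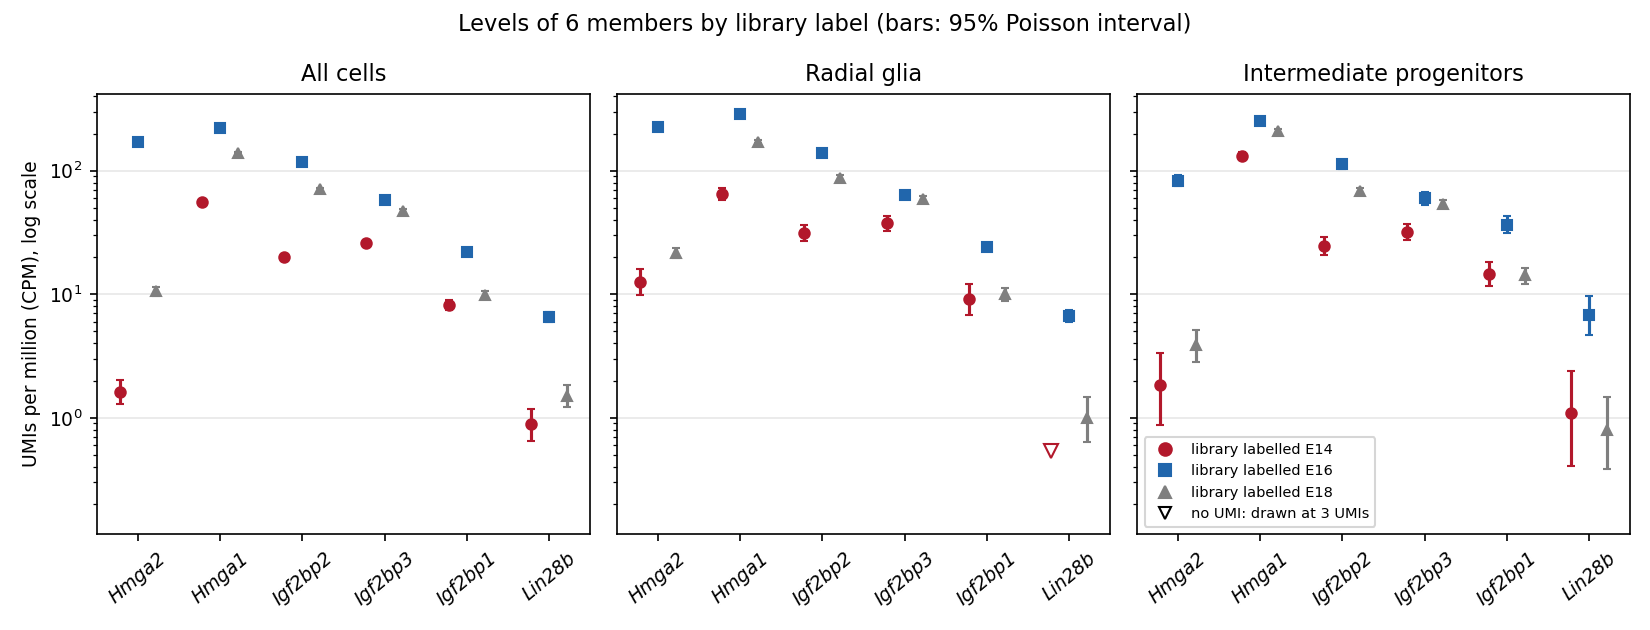
Level of 6 members in CPM (log axis) in all cells, radial glia and intermediate progenitors of the libraries labelled E14 (red circles), E16 (blue squares) and E18 (grey triangles); bars are 95% Poisson intervals, and an open triangle marks no UMI, drawn at 3 UMIs. Label E16 is highest for every gene shown, and for Hmga2 in radial glia it sits at 224.6 CPM against 12.6 and 21.6.

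Hmga2 set label E16 apart from the other labels more than any other member that reached 5 CPM. In all cells Hmga2 stood at 1.63 CPM (1.30 to 2.01) in label E14, 171.8 (168.7 to 174.8) in label E16 and 10.5 (9.76 to 11.4) in label E18. Label E16 was 105.5-fold above label E14 (85.4 to 132.1). As a log2 ratio with 1 CPM added this was 6.04, and it was 4.64 in barcodes with at least 2000 genes and at most 5% mitochondrial UMIs, where label E14 held 6.98 CPM. The range was narrower among radial glia alone, where the 3 libraries gave 12.6 CPM (9.80 to 15.9), 224.6 (220.3 to 229.0) and 21.6 (19.8 to 23.5). Label E16 radial glia were 17.9-fold above those of label E14 (14.1 to 22.9) and 10.4-fold above those of label E18 (9.54 to 11.4). Label E18 exceeded label E14 by 1.72-fold (1.34 to 2.24). In single cells the median was 3 Hmga2 UMIs per radial glia cell in label E16, with a maximum of 57, and 0 in both other labels, with maxima of 4 and 6.

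Shares of Hmga2-positive radial glia ran in the same order of the labels. With every cell thinned to 2000 UMIs, an Hmga2 UMI was found in 0.811% (0.168 to 2.35) of radial glia in label E14, 31.4% (29.7 to 33.1) in label E16 and 4.03% (3.16 to 5.06) in label E18. This left out 4, 22 and 16 shallower cells. Thinning was a random draw that was not repeated, and the share of label E14 rests on few cells. Ratios of these shares are therefore not read. Before thinning, at median depths of 13302.5, 13632 and 12723.5 UMIs, the shares were 14.4%, 84.0% and 19.8%. As the level of free RNA in cells not known for the gene, maturing neurons had 0 of 2116 and 0 of 846 cells positive after thinning, which by the limit of 3 counts allows up to 0.142% and 0.355%. In label E16 that background was read in Cajal-Retzius cells, early neurons of the cortical surface, of which 1.39% (0.169 to 4.93) were positive at a median of 8491.5 UMIs. Erythroid cells of label E16 held 1.71 CPM of Hmga2, a level lowered by the globin UMIs in their total.

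Hmga1 followed a shallower course. In radial glia it was 65.0 CPM (58.5 to 72.1) in label E14, 285.6 (280.8 to 290.5) in label E16 and 172.4 (167.3 to 177.6) in label E18. Label E16 was 4.39-fold above label E14 (3.96 to 4.89) and 1.66-fold above label E18 (1.601 to 1.71). The levels in all cells were 55.7, 221.6 and 139.7 CPM. Among radial glia none of the 3 intervals overlapped.

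Among the Igf2bp genes, Igf2bp2 had the widest range and Igf2bp3 the narrowest. Igf2bp2 in radial glia was 31.4 CPM (26.9 to 36.5), 139.4 (136.0 to 142.8) and 88.0 (84.4 to 91.8) in labels E14, E16 and E18, a 4.43-fold difference between label E16 and label E14 (3.82 to 5.18). Igf2bp1, known to bind the mRNAs of Actb and Myc, was 9.16 CPM (6.82 to 12.04), 24.3 (22.9 to 25.8) and 10.0 (8.80 to 11.3). Label E16 was 2.65-fold above label E14 (2.004 to 3.59), whereas label E18 and label E14 did not differ beyond counting error (1.09-fold, 0.805 to 1.51). Igf2bp3 was at 37.7 CPM (32.8 to 43.2), 63.8 (61.6 to 66.2) and 59.2 (56.2 to 62.3), and its level in label E18 lay just 1.08-fold below label E16 (1.01 to 1.15).

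Counted together, 5 of the 8 members reached a mean of 5 CPM in radial glia, and 4 of these were at least 2-fold higher in label E16 than in label E14, while 2.39% of the 9898 genes with that mean were. Igf2bp3 was the fifth. The median log2 ratio of the 5 was 2.11, against -0.12 over all genes. Between labels E18 and E16, 2 members (Hmga2 and Igf2bp1) were at least 2-fold lower, as were 0.651% of genes. Between labels E18 and E14, 2 members (Hmga1 and Igf2bp2) were at least 2-fold higher, as were 1.03% of genes. These comparisons share libraries. In all cells the counts were 5 higher (11.3% of genes), 2 lower (1.27%) and 3 higher (6.73%) for the same 3 comparisons. With at least 2000 genes and at most 5% mitochondrial UMIs per barcode these were 3, 1 and 1, and Hmga2 in label E18 over label E14 had a log2 ratio of 0.81 in place of 2.13. With 5 CPM added, Igf2bp1 was no longer 2-fold lower in label E18 than in label E16, in all cells or in radial glia. In all cells, when label E14 was one of the pair, Hmga2 reached the 5 CPM mean only through the library in which it was higher. In those comparisons it had to differ.

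The radial glia of the 3 labels fell into different clusters, which touches every comparison above. Of the 2977 cells labelled E16, 2968 lay in 3 clusters whose leading genes were histone and replication genes or mitotic genes, and Hmga2 was among the 10 leading genes of each, although the members were left out of the genes used for clustering. Radial glia of labels E14 and E18 lay mostly in 3 other clusters, the largest led by Mfge8, Aldoc, Slc1a3 and Fabp7. The summed level of the 12 radial glia markers, all detected, was 10539, 4192 and 6020 CPM in labels E14, E16 and E18. The summed level of 17 mitotic genes was similar, at 5028, 4276 and 4514 CPM. Within the clusters of label E16, Hmga2 was 218.3 CPM (211.8 to 225.0), 197.0 (189.7 to 204.5) and 263.0 (254.2 to 272.1), the last led by mitotic genes. The 95 radial glia labelled E18 that lay in these clusters had 15.1 CPM (7.25 to 27.8), against 21.8 (20.0 to 23.7) in the other label E18 radial glia. The 9 radial glia labelled E16 outside them had 336.9 CPM (242.8 to 455.4), from 42 UMIs. The value of the 95 cells rests on 10 UMIs.

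Markers of other cell types also differed in radial glia. The 12 maturing-neuron markers summed to 442.4, 221.1 and 221.1 CPM in labels E14, E16 and E18, and the 10 intermediate progenitor markers to 822.6, 447.8 and 636.4 CPM. The 9 cortical hem-like markers, Wnt and R-spondin genes of the dorsal midline, summed to 4.67, 49.1 and 23.3 CPM in labels E14, E16 and E18. The 9 erythroid markers summed to 20.3, 56.7 and 35.1 CPM. The 9 meningeal markers summed to 13.8, 10.8 and 8.61 CPM. Oligodendrocyte progenitor markers, 6 in number, summed to 24.6, 2.38 and 5.68 CPM, and the 8 choroid plexus markers to 3.41, 15.3 and 41.8 CPM. The hem-like and erythroid sums ran in the same order as Hmga2, as did the 7 Cajal-Retzius markers, at 7.36, 15.5 and 8.57 CPM. Of the hem-like and erythroid markers, 4 and 5 were at 0 in label E14 and none in label E16. Zeros also depend on depth, as radial glia held 5567407 UMIs in label E14 and 46204683 in label E16. Of the 9 meningeal markers, 6 were at 0 in label E14, where their sum was highest. The part of these sums in the differences was not tested.

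Intermediate progenitors lay in 3 clusters that all libraries shared, but in unequal parts. The cluster led by Neurog2 and Eomes held 285 of 466 cells in label E14, 26 of 402 in label E16 and 457 of 1090 in label E18. Over the whole class Hmga2 was 1.84 CPM (0.880 to 3.38) in label E14, 83.2 (75.03 to 92.1) in label E16 and 3.85 (2.84 to 5.11) in label E18. Label E16 was 45.3-fold above label E14 (24.4 to 95.3). Igf2bp1 was 14.7, 36.6 and 14.2 CPM, and Igf2bp2 was 24.8, 112.6 and 68.0 CPM. Of the 5 members that reached 5 CPM, 3 (Hmga2, Igf2bp1 and Igf2bp2) were at least 2-fold higher in label E16 than in label E14, as were 3.38% of genes. Hmga2 reached the 5 CPM mean here only through label E16, so it had to differ. Hmga1 was 1.94-fold higher (1.76 to 2.13) and Igf2bp3 1.86-fold (1.53 to 2.26). Between labels E18 and E16, 2 members, again Hmga2 and Igf2bp1, were at least 2-fold lower, as were 1.25% of genes, and the same holds there of Hmga2. Between labels E18 and E14, 1 of the 4 members that reached 5 CPM, Igf2bp2, was at least 2-fold higher, as were 0.977% of genes. Summed mitotic genes differed in this class, at 2850, 5678 and 4343 CPM.

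The clusters of this class were compared one by one. In the cluster led by mitotic genes, with 77, 147 and 239 cells and 8864, 9694 and 10266 CPM of mitotic genes, Hmga2 was 1.05 CPM (0.0265 to 5.84), 85.8 (72.3 to 101) and 1.13 (0.233 to 3.31). In the cluster led by Gadd45g, Eomes and histone genes, with 104, 229 and 394 cells, it was 3.95, 79.2 and 5.67 CPM. Igf2bp1 in the mitotic cluster was 13.6 CPM (7.25 to 23.3), 40.8 (31.6 to 51.8) and 16.2 (11.8 to 21.9). In the cluster led by Neurog2 and Eomes, where label E16 had 26 cells, Hmga2 was 1.01 CPM (0.208 to 2.95), 113.1 (72.4 to 168.2) and 3.32 (1.86 to 5.47). Igf2bp1 there was 14.8 CPM (10.7 to 19.9), 28.3 (10.4 to 61.5) and 9.73 (7.07 to 13.1), so the interval of label E16 overlaps both others. The part of the cell cycle in the class values was not tested.

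**Figure D2:**
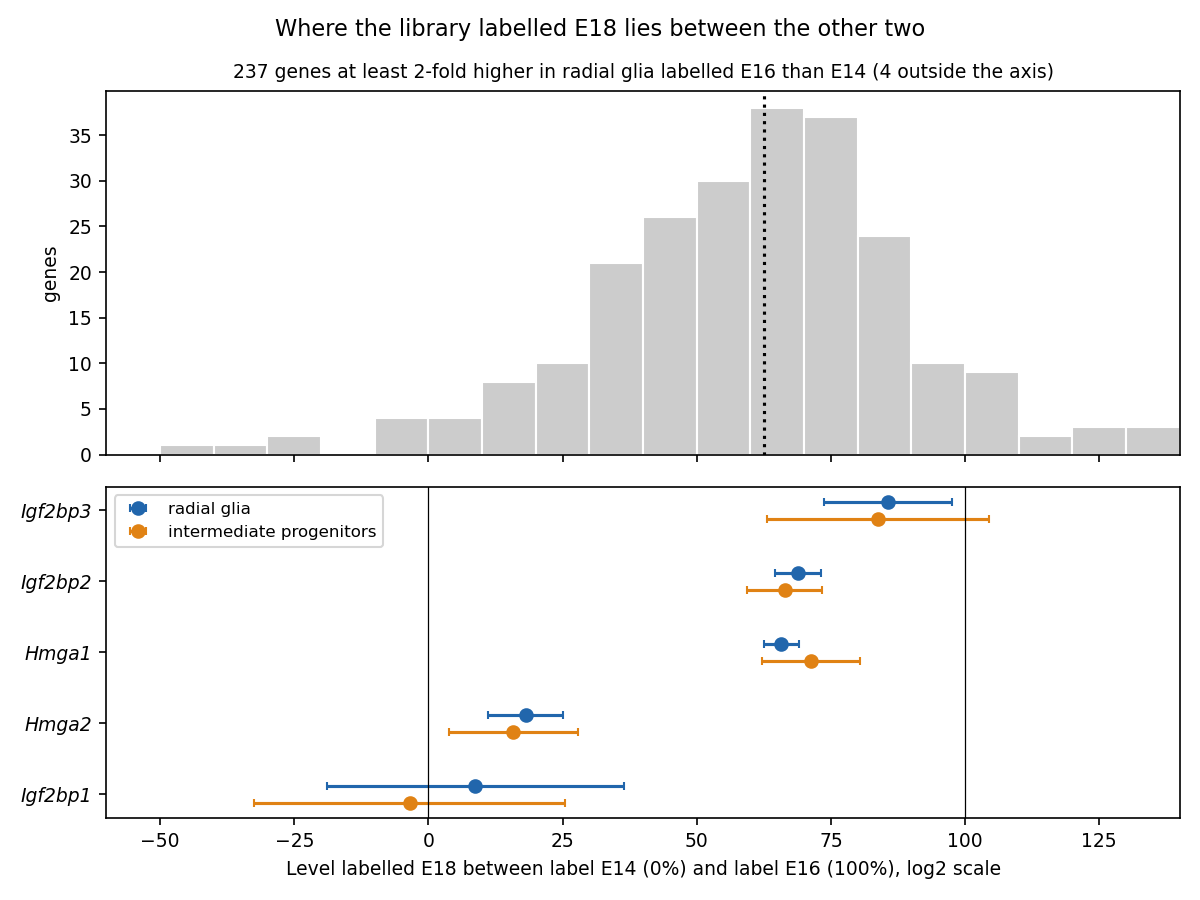
Upper panel: for the 237 genes at least 2-fold higher in radial glia labelled E16 than E14, the position of label E18 on a log2 scale running from label E14 (0%) to label E16 (100%), with the median dotted at 62.4%. Lower panel: the same position for 5 members in radial glia (blue) and intermediate progenitors (orange), with 95% counting intervals. In radial glia Hmga2 (18.1%) and Igf2bp1 (8.72%) sit below the median, Hmga1 (65.8%) and Igf2bp2 (68.9%) close to it, and Igf2bp3 (85.6%) above it. Igf2bp3 is not among the 237 genes.

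How the library labelled E18 stood between the other libraries differed between the members. Its position was computed on the log2 scale, with 0% at the level of label E14 and 100% at that of label E16, and with approximate 95% counting intervals. In radial glia Hmga2 stood at 18.1% (11.2 to 25.1) and Igf2bp1 at 8.72% (-18.9 to 36.4). Hmga1 stood at 65.8% (62.6 to 69.0), Igf2bp2 at 68.9% (64.6 to 73.2) and Igf2bp3 at 85.6% (73.7 to 97.5). The 237 genes at least 2-fold higher in label E16 than in label E14 radial glia had a median position of 62.4%, with quartiles of 44.6% and 78.3%, and 25 of them (10.5%) stood below 25%.

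Intermediate progenitors, other cells of the same libraries, gave the same order of the 5 members except that Hmga1 and Igf2bp2 changed places. Hmga2 stood at 15.8% (3.88 to 27.8) and Igf2bp1 at -3.52% (-32.4 to 25.4) there. Hmga1 stood at 71.3% (62.2 to 80.5), Igf2bp2 at 66.4% (59.4 to 73.3) and Igf2bp3 at 83.8% (63.0 to 104). The 321 genes at least 2-fold higher in this class had a median position of 51.9%, with quartiles of 34.3% and 66.4%, and 16.2% stood below 25%. Hmga1, Igf2bp2 and Igf2bp3 had intervals that took in the upper quartile. Hmga1 and Igf2bp3 are not among these genes, at 1.94-fold and 1.86-fold. Igf2bp3, at 1.69-fold, is not among the 237 genes of radial glia either. In both classes the library labelled E18 was thus closer to label E14 for Hmga2, and for Igf2bp1 its interval took in the level of label E14. For Hmga1 and Igf2bp2 in radial glia its position was close to the median of the 237 genes. Lin28b could not be placed in radial glia, where label E14 held no UMI.

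**Figure D3:**
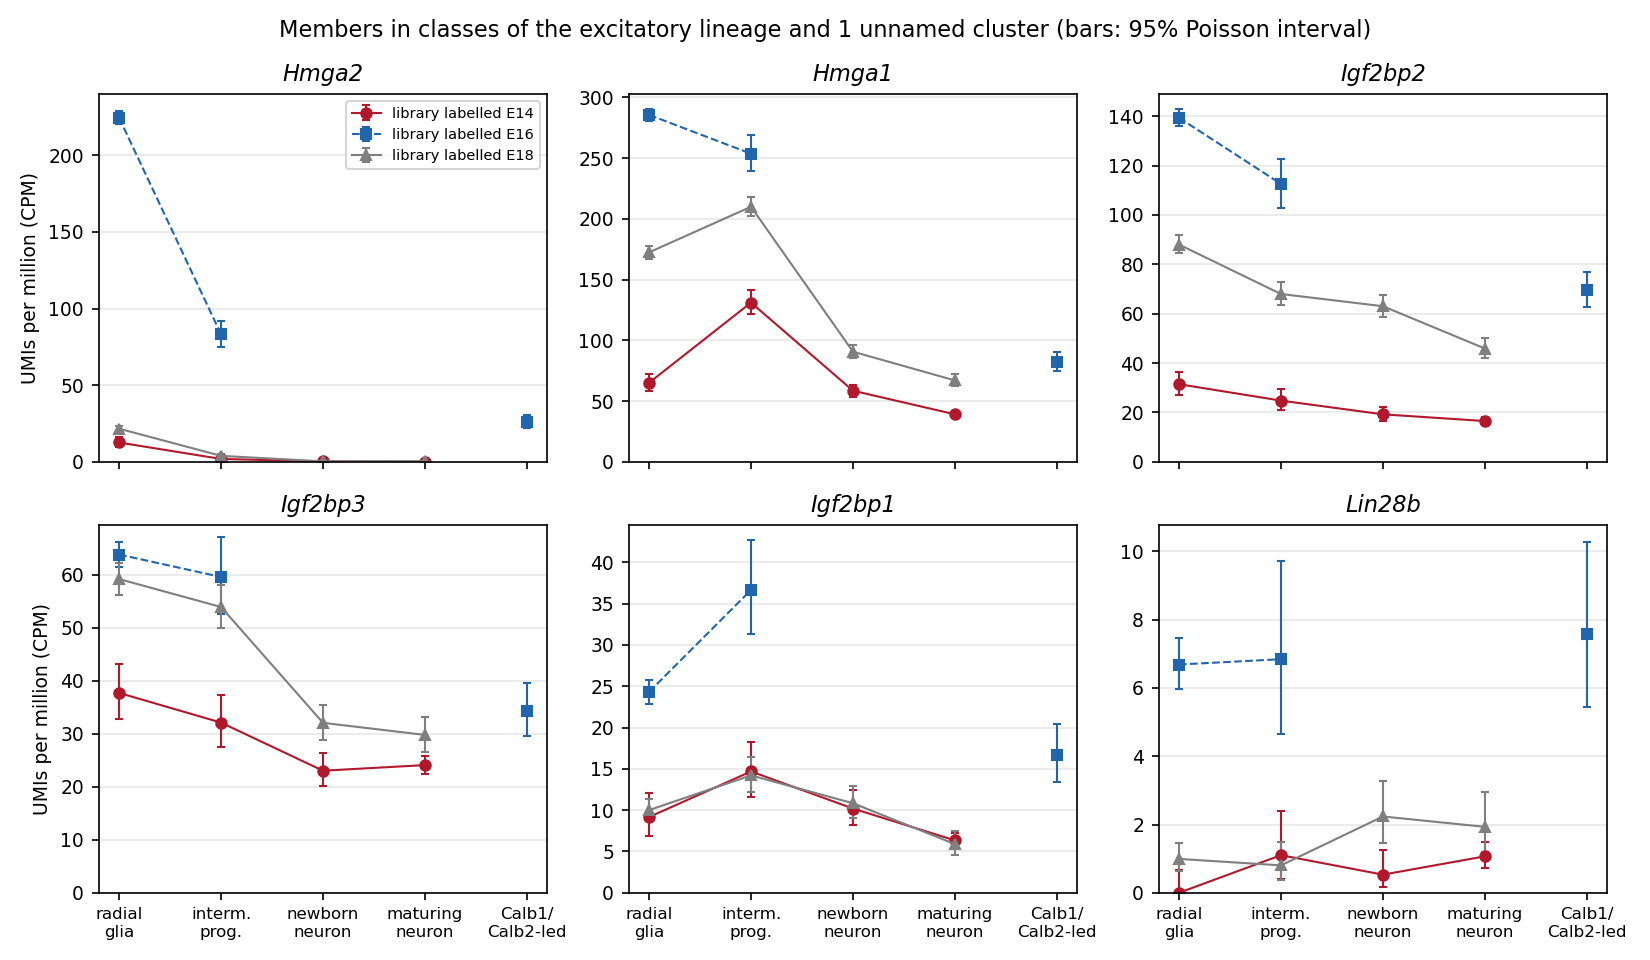
Level of 6 members in CPM in classes of the excitatory lineage, for the libraries labelled E14 (red), E16 (blue, dashed) and E18 (grey), with 95% Poisson intervals; the unnamed Calb1/Calb2-led cluster of label E16 is shown apart, with no line to it. Hmga2 falls from radial glia to intermediate progenitors and to near 0 in neurons of labels E14 and E18, while Hmga1 and Igf2bp1 are highest in intermediate progenitors of those labels.

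Along the excitatory lineage within each library the members took different courses. Hmga2 was lower in intermediate progenitors than in radial glia by 6.85-fold in label E14 (3.51 to 14.9), 2.70-fold in label E16 (2.43 to 3.00) and 5.604-fold in label E18 (4.17 to 7.69). Of the 5, 6 and 5 members that reached 5 CPM it was the only one at least 2-fold lower at this step (in labels E14 and E18 it reached that mean only through radial glia), where 8.52%, 8.09% and 7.24% of genes were. In newborn and maturing neurons it was almost absent, with 0.212 CPM (2 UMIs) and 0.0323 (1 UMI) in label E14 and 0.258 (3 UMIs) and 0.368 (4 UMIs) in label E18. The Calb1/Calb2-led cluster of label E16 had 25.9 CPM (21.8 to 30.5), 3.22-fold below the intermediate progenitors of that library (2.64 to 3.94). That is above radial glia of label E14 (12.6 CPM) and within counting error of those of label E18 (21.6 CPM). In its own library, Cajal-Retzius cells held 8.40 CPM (4.19 to 15.03) and GABAergic cells 11.9 (4.78 to 24.5).

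Igf2bp1 went the other way at the first step, and in the same direction in every library. Intermediate progenitors exceeded radial glia by 1.603-fold in label E14 (1.11 to 2.32), 1.51-fold in label E16 (1.27 to 1.78) and 1.42-fold in label E18 (1.17 to 1.73). None of these reached 2-fold. Maturing neurons then held 6.34 CPM (5.48 to 7.29) in label E14 and 5.89 (4.53 to 7.52) in label E18, the lowest of the lineage, though in label E14 the interval overlaps that of radial glia. Hmga1 was 2.02-fold higher in intermediate progenitors than in radial glia in label E14 (1.77 to 2.29; 4.81% of genes at least 2-fold higher) and 1.22-fold in label E18 (1.16 to 1.28), but 1.13-fold lower in label E16 (1.06 to 1.197). At the next step Hmga1 was 2.24-fold lower in newborn neurons of label E14 (2.002 to 2.51) and 2.32-fold lower in those of label E18 (2.16 to 2.49), as 9.35% and 9.28% of genes were at least 2-fold lower.

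Igf2bp2 and Igf2bp3 stayed well detected in neurons. Maturing neurons labelled E18 still held 45.9 CPM of Igf2bp2 (41.9 to 50.1), more than the radial glia labelled E14 (31.4 CPM). Of the 4 members that reached 5 CPM in these neurons, Igf2bp2 was also the only one at least 2-fold higher in label E18 than in label E14 in newborn neurons (63.0 against 19.2 CPM), as were 1.44% of genes, and in maturing neurons (45.9 against 16.5 CPM), as were 2.35%. The neurons of these labels lay in different clusters. Newborn neurons lay in a pair of clusters with 743 and 470 cells of label E14 and another with 714 and 673 of label E18, and maturing neurons in clusters of 1370 and 753 cells of label E14 and 840 of label E18. Igf2bp2 was 15.7 to 20.2 CPM in the 4 clusters of label E14 and 46.1 to 70.1 in the 3 of label E18. Igf2bp3 was 24.1 CPM in maturing neurons of label E14 and 29.8 in those of label E18.

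**Figure D4:**
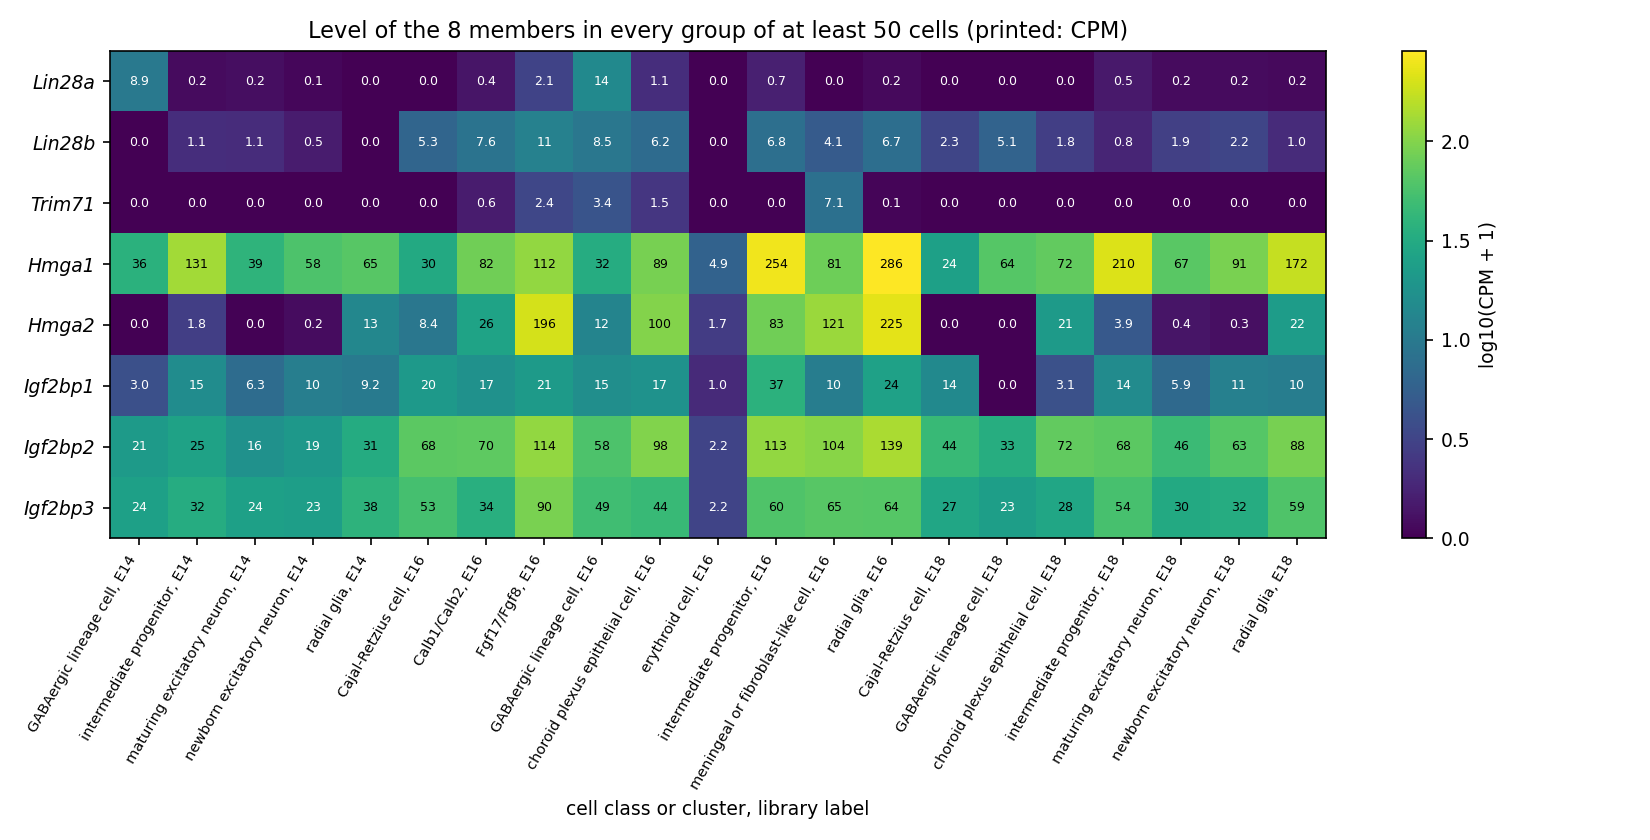
Level of the 8 members (rows) in each of the 21 groups of at least 50 cells of a cell class or cluster and library label (columns); colour is log10 of CPM with 1 CPM added, and the printed numbers are CPM. Hmga2 lies between 83.2 and 224.6 CPM in 5 groups of label E16 and at 25.9 or below elsewhere, and the erythroid column is dark for every member.

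Hmga2 was also high in several other groups of label E16. After label E16 radial glia (224.6 CPM) came the Fgf17/Fgf8-led cluster (196.2, 183.1 to 210.1), meningeal or fibroblast-like cells (120.8, 104.8 to 138.5) and choroid plexus epithelial cells (99.9, 88.4 to 112.4). The last 2 groups overlap in their intervals. Choroid plexus cells labelled E18 held 20.9 CPM (14.5 to 29.2), as much as radial glia of that label within counting error. Igf2bp3 was highest in the Fgf17/Fgf8-led cluster, at 89.8 CPM (81.0 to 99.3), 1.41-fold above label E16 radial glia (1.26 to 1.57). Hmga1 was 2.54-fold lower in that cluster than in these radial glia (2.32 to 2.79), at 112.3 against 285.6 CPM. Of the 6 members that reached 5 CPM it was the only one at least 2-fold lower, as were 2.14% of genes. At least 2-fold higher were 0 members and 5.18% of genes. Igf2bp2 ranged from 98.1 to 139.4 CPM over radial glia, the Fgf17/Fgf8-led cluster, intermediate progenitors, meningeal cells and choroid plexus of label E16. Erythroid cells labelled E16 were lowest among the label E16 groups for Hmga1 (4.88 CPM), Hmga2, Igf2bp1 (0.977), Igf2bp2 (2.20) and Igf2bp3 (2.20). Globin UMIs in the total of these cells lower such values, by an amount that was not computed.

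The make-up of the libraries entered the values over all cells. When the levels in radial glia, intermediate progenitors and GABAergic cells were weighted by the same mean composition in every library, Hmga2 was 8.52, 169.5 and 14.9 CPM in labels E14, E16 and E18, and the log2 ratio (1 CPM added) of label E16 over label E14 was 4.16 in place of 6.04. In the same classes with each library's own mix, Hmga2 was 7.05, 209.7 and 15.6 CPM, so leaving out the other classes alone narrowed the range. The weighted ratio was 1.30 in place of 1.33 for Igf2bp1, 2.11 in place of 2.51 for Igf2bp2 and 1.61 in place of 1.97 for Hmga1. For Igf2bp3 it was 0.79 in place of 1.13, below the 2-fold mark that it passes over all cells. These classes covered 20.9%, 69.4% and 54.1% of the cells.

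Within label E16 radial glia, joint detection of the members was counted cell by cell. After thinning, 380 of 2955 cells held both Hmga1 and Hmga2, where independence would give 378.7. Hmga2 with Igf2bp2 gave 233 cells against 219.5, Hmga2 with Igf2bp3 112 against 101.4, and Hmga2 with Igf2bp1 43 against 45.2. In label E18, 40 of 1762 cells held both Igf2bp2 and Igf2bp3 against 29.1, and 67 held both Hmga1 and Igf2bp2 against 76.8. Such counts are sparse and are given as a description.

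Over the 21 groups of at least 50 cells, the members' levels (log2 of CPM with 10 CPM added) were most alike for Igf2bp2 and Igf2bp3, with a Pearson r of 0.885, followed by Hmga2 and Igf2bp2 at 0.758. Lin28a and Trim71 were too sparse to read. The groups share 3 libraries, so these values describe and do not test. By the same measure over 10144 other genes, those most like Hmga2 were LOC120093613 (r = 0.958), RGD1308065, Zcchc3, Acer3 and Ccnd1 (r = 0.857). Those most like Igf2bp1 were Cbx2 (r = 0.879), a Polycomb subunit, Nuak2, Kdm6a, LOC120101456 and Zfp217 (r = 0.828). For Lin28b they were LOC102554311 (r = 0.850), LOC120101539, LOC108348980, Klf10 and RGD1559955 (r = 0.786). Lin28b reached at most 11.1 CPM in a group, below the 20 CPM asked of the genes compared with it. With 10 CPM added its range is narrow, and several groups held few of its UMIs, so this list is weakly based.

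LOC120093613 is a lncRNA that overlaps Hmga2 in the RefSeq table, as do LOC102549309 and LOC120093614. It was 10.96 CPM (8.38 to 14.1), 43.5 (41.6 to 45.5) and 9.64 (8.47 to 10.9) in radial glia of labels E14, E16 and E18. How reads in the overlap were assigned to the genes is not given in the sources used here. The part of that assignment in the likeness to Hmga2 was not tested. The other overlapping lncRNAs had at most 29 UMIs in radial glia of any label.

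Genes linked to these members by known roles were read from lists. Of 19 genes of microRNA maturation and let-7 turnover, all of which reached 5 CPM in radial glia, 1 was at least 2-fold higher in label E16 than in label E14 and none was lower, where 9.67% of genes changed by 2-fold in either direction. That gene was Ago1, an Argonaute protein that loads microRNAs, at 64.5, 179.5 and 136.6 CPM in labels E14, E16 and E18. Tut4, the uridylase that Lin28 proteins recruit to let-7 precursors, was 85.0, 106.3 and 98.8 CPM. Dis3l2, the exonuclease that degrades the uridylated precursor, was 13.8, 16.6 and 14.4 CPM. The list's median log2 ratio was 0.08, near that of all genes (-0.12). Tut4 and Dis3l2 were named for their roles after their values were seen.

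Of 22 other textbook let-7 targets, 19 reached 5 CPM in radial glia, and 3 were at least 2-fold higher and 2 lower in label E16 than in label E14, where 2.39% of all genes were higher and 7.27% lower. The list's median log2 ratio was 0.19. Ccnd1, the cyclin D1 gene that carries cells through G1, was 68.4 CPM (61.7 to 75.7), 251.1 (246.6 to 255.7) and 40.4 (38.0 to 43.0), so label E18 lay below label E14. Ccnd2, its paralogue, was 156.8, 367.5 and 513.1 CPM, highest in label E18. Plagl2 was 16.5, 42.3 and 31.0 CPM. Irs2, an adaptor of the insulin receptor, went the other way at 23.7, 8.12 and 10.2 CPM. Myc, at 17.4, 4.67 and 7.46 CPM, was the second lower gene and was named after its values were seen. Members of the list thus went in both directions.

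Of 9 transcripts known to be bound by Igf2bp proteins, 6 reached 5 CPM, and 2 were at least 2-fold lower in label E16 radial glia, as were 7.27% of genes, and none was higher. They were Myc and Mapt, which encodes the microtubule protein tau, at 33.6, 4.85 and 6.83 CPM. The maturing-neuron markers in radial glia, given above, also summed higher in label E14, and their part in the Mapt level was not tested. The median log2 ratio was -0.41. Cdkn2a and Cdkn2b, cell cycle inhibitors that Hmga2 is known to hold down in neural stem cells, did not reach 5 CPM. Together they had 3, 3 and 2 UMIs in radial glia of labels E14, E16 and E18, too few to compare. Of 17 mitotic genes, 1 was at least 2-fold lower (Ccnb2, at 236.9, 114.6 and 155.2 CPM), and of 16 S phase genes 1 was higher (Cdc6, at 17.4, 35.9 and 32.6 CPM), beside the same 7.27% and 2.39% of all genes. In all cells, by contrast, all 17 mitotic and all 16 S phase genes were at least 2-fold higher in label E16 than in label E14, as were 11.3% of genes, and the share of radial glia there was larger.

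The 250 bases upstream of the annotated start were in the RefSeq promoter table for 7 members. They were searched on both strands for the GC box GGGCGG, bound by Sp1 family factors, the E-box CACGTG, the octamer motif ATTTGCAT, the TATA box TATAAA and the CCAAT box. The GC box was found in 4 of the 7 (Hmga1, Igf2bp2, Igf2bp3 and Trim71) and in 30.5% of 33469 promoters of the same length. The E-box was in Igf2bp3 only (5.59% of promoters) and the octamer in Hmga1 only (1.56%). The TATA and CCAAT boxes were in none of the 7 (12.9% and 34.0% of promoters). The GC content was 82.4% for Igf2bp2, 56.4% for Hmga2 and 45.6% for Lin28b, where the median promoter had 51.2%. The promoter of Igf2bp2, the member at least 2-fold higher in label E18 than in label E14 in radial glia, intermediate progenitors and both neuron classes, is shown with its 6 GC boxes in capitals, as GGGCGG or its reverse complement. Hmga2, Lin28a and Lin28b held none of the 5 motifs.
Igf2bp2 (GRCr8, chr11:92378658-92378907, plus strand): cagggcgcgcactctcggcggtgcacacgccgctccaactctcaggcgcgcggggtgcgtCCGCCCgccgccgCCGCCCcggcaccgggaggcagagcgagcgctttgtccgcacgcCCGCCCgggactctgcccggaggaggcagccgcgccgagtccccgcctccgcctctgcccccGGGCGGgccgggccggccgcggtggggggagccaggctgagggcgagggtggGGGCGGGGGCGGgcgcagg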

How the data were processed

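Per the file headers and labels, each library was deposited as a filtered gene-by-barcode matrix of raw UMI counts made by the authors with Cell Ranger 6.0.1 on mRatBN7.2, tool and build per the submitters' processing notes. From these counts, barcodes with at least 1000 genes and at most 10% mitochondrial UMIs were kept, and the barcodes with the highest Scrublet scores were removed as doublets at 0.8% per 1000 cells. Cells were clustered with scanpy 1.11.5 and leidenalg 0.10.2 (2000 variable genes without the members, 30 components, resolution 1) and named from 14 marker lists. Levels are summed UMIs per 1000000 UMIs (CPM). Printed folds are plain ratios of CPM. Log2 ratios, positions and 2-fold counts add 1 CPM, and the counts take genes with a mean of at least 5 CPM. Shares used cells thinned to 2000 UMIs. Levels and ratios of groups with fewer than 50 cells were not formed, unless the number of cells is given. The calls and the intervals of levels were run on simulated data. In the radial glia comparison of labels E16 and E14, over 9871 genes, 100% of 200 genes changed 4-fold were recovered. Of the level intervals checked in the simulated library without changes, 96.2% held the true value. The simulated counts were Poisson draws, so such coverage was built in. Intervals of ratios were not checked. The named genes are the 8 members, from each list at most 4 genes past 2-fold in radial glia between labels E14 and E16 with at least 20 CPM, and the 5 genes most like Hmga2, Lin28b and Igf2bp1. Tut4, Dis3l2, Myc, Cdkn2a and Cdkn2b fall outside that rule and were named after their values were seen. The members and lists were chosen with earlier results of these data known. Gene symbols matched the RefSeq table (GRCr8) for 87.9% of genes. That build differs from mRatBN7.2, so no position was carried over to the counted genes. GRCr8 positions serve only for the printed sequences and for which genes overlap. Nothing states that the libraries came from separate litters, and no replicate exists.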

Additional observations from a re-analysis of the deposited data

Results flagged for a closer look

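Barcodes that failed the filter on genes and mitochondrial UMIs, which enter no comparison above, carried the members as well. The 8 members together came to 107.8 CPM (99.8 to 116.2) in the 2656 failed barcodes labelled E14, 257.6 (242.2 to 273.7) in the 1514 labelled E16 and 164.1 (150.1 to 179.0) in the 1247 labelled E18. In kept cells the sums were 112.7, 599.3 and 279.3 CPM. Failed barcodes of labels E16 and E18 therefore held less of the members per UMI than their kept cells, and those of label E14 about as much. The order of the labels was the same. Hmga2 alone was 1.27, 71.2 and 12.6 CPM in failed barcodes, against 1.63, 171.8 and 10.5 in kept cells, so in label E18 it was not lower. The failed barcodes were listed for a closer look because their data lie outside the main measurement and show the signal.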

How the results depend on the processing

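The counts of members past 2-fold kept their value or came within 1.5 times of it in 93 of 98 alternative values, over other barcode filters, doublet removal, clusterings, totals, cell weights and added CPM. With 5 CPM added, 1 member and not 2 was at least 2-fold lower in label E18 than in label E16, in all cells and in radial glia alike. With at least 2000 genes and at most 5% mitochondrial UMIs, all cells gave 3 members higher in label E16 than in label E14, 1 lower in label E18 than in label E16 and 1 higher in label E18 than in label E14; the cause was not tested. Under that filter only 7 radial glia labelled E16 were left named as such, and radial glia comparisons with that label gave no value. Of 440 log2 ratios of single members under alternatives, 367 stayed within the main counting interval, and none past 2-fold changed sign. Of the 162 belonging to the 5 abundant members with a ratio past 2-fold, 37 left that interval and 155 stayed past 2-fold. The position of label E18 in radial glia, with alternatives added after the data were seen, ranged from 16.1% to 21.9% for Hmga2, -5.15% to 12.2% for Igf2bp1, 63.5% to 66.7% for Hmga1, 67.4% to 72.9% for Igf2bp2 and 80.3% to 86.4% for Igf2bp3. The share of all genes past 2-fold in all cells, label E16 over label E14, was 24.9%, and 15.7% with no minimum beyond 1 UMI. In the same way it was 6.83% and 4.36% for label E18 over label E16, and 11.2% and 7.47% for label E18 over label E14. In radial glia, label E18 over label E16, it was 2.62%, and 1.67% with a minimum of 20 CPM. No paired analysis was possible because each label has 1 library. Depth limits Lin28a and Trim71, whose UMIs number 37 or fewer in every library.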
